A study of Mus musculus with 2 samples.

Results

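Tmem52, Ecrg4, Crlf2, Tubb3, Fkbp11, Prkg2 and Abhd8 are 7 of the 55487 genes counted in single cells of regenerating mouse muscle, and were taken by symbol from the deposited gene list because they were higher in myogenic cells of the Setdb1 knockout library. All 7 symbols matched 1 row each, and all 7 were measured with at least 20 unique molecular identifiers (UMIs, each standing for 1 captured transcript). The choice used the knockout against wild-type contrast in myogenic cells, so the values of that contrast below describe the genes and support nothing further. Levels are UMIs of a gene scaled to a total of 1000000 UMIs in the sum of cells (CPM). Genes at 50 CPM or more in 1 library were ranked by the KO/WT ratio's bound nearest to 1. Mitochondrial, ribosomal protein, hemoglobin, immunoglobulin, Gm-numbered and Rik genes, Xist and Y-linked genes were left out of this ranking by name. The 7 genes took places 2, 4, 7, 8, 9, 10 and 12, and the genes between them were not chosen. The last inside was Abhd8, at 14.4 CPM in the wild-type (WT) and 55.4 CPM in the knockout (KO) library. The first below it was AI506816, at 68.8 and 212.3 CPM.

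The 2 libraries, 1 WT and 1 from the conditional Setdb1-cKO mouse model (labelled KO), hold cells of injured tibialis anterior (TA) muscle of mice aged 8 to 12 weeks. Cells were freed with collagenase II and dispase, sorted with Hoechst and propidium iodide, and captured with the 10x Genomics 3' v2 chemistry. The sources used here do not say which Cre driver deletes Setdb1, how the muscle was injured and when cells were taken, or how many animals went into a library. Each library is 1 sample, so no test between genotypes exists, and every interval below, in square brackets, is a 95% interval that covers counting error only. Ratios are the KO level over the WT level unless said otherwise.

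Setdb1 is a histone methyltransferase that places repressive methylation on histone H3 and keeps genes of other lineages and repeats silent. Skeletal muscle regenerates from stem cells that carry Pax7, divide as myoblasts, and differentiate under Myod1 and Myog into cells that fuse to fibres. The 7 genes come from unrelated families. Crlf2 encodes the receptor chain for thymic stromal lymphopoietin (TSLP) and pairs with the interleukin-7 receptor chain Il7r. Ecrg4 encodes a secreted peptide precursor known from the choroid plexus and other lining cells. Tubb3 is the beta-tubulin used as a marker of neurons. Fkbp11 is a proline isomerase of the endoplasmic reticulum in secretory cells. Prkg2 is a cyclic GMP dependent protein kinase, Abhd8 belongs to the alpha/beta hydrolase domain family, and Tmem52 encodes a membrane protein.

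After cell calling, 6314 WT and 5730 KO cells remained, with medians of 12123 and 13016 UMIs, and 6 barcodes occurred in both libraries. Of these, 682 WT cells (10.8%) and 372 KO cells (6.49%) were myogenic-like by Pax7, Myf5, Myod1, Myog and 8 further markers, at medians of 17391 and 21300 UMIs. Setdb1 itself checks the labels. It gave 245 UMIs, or 18.2 CPM, in WT and 78 UMIs, or 8.76 CPM, in KO myogenic-like cells, a ratio of 0.480 [0.367 to 0.622]. Outside this class the Setdb1 ratio lay between 0.640 in tenocyte-like and 1.28 in mononuclear phagocyte-like cells. Whether the counted Setdb1 transcripts span the deleted part cannot be told from gene counts.

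The genes lie on 5 chromosomes of the GRCm38 build. Tmem52 is at chr4:155469114-155470858 on the plus strand, Ecrg4 at chr1:43730602-43742578 on the plus strand, and Tubb3 at chr8:123411424-123422015 on the plus strand. Crlf2 at chr5:109554709-109558993, Prkg2 at chr5:98929773-99037351, Fkbp11 at chr15:98724366-98728198 and Abhd8 at chr8:71456705-71463655 are on the minus strand. The counts are over whole genes, so no exon, intron or UTR can be assigned to a UMI. Ecrg4 overlaps the antisense gene Gm29155, Tubb3 the same-strand gene Gm20388, and Prkg2 the pseudogene Gm3470. These 3 overlapping genes together had 0 UMIs in WT and 1 UMI in KO myogenic-like cells, while reads that could belong to either gene of a pair are uncertain.

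RefSeq promoters on GRCm38.p6, the 300 bases around a start site, were found for 5 of the genes. They differ widely in CG dinucleotides, which are the sites of DNA methylation, and 3 of them are shown for that range, with each CG in capitals and read 5′ to 3′ on the gene's strand. Ecrg4 (chr1:43730352-43730651, plus) has 5 CG, Crlf2 (chr5:109558944-109559243, minus) has 31, and Tubb3 (chr8:123411303-123411602, plus) has 26.
Ecrg4: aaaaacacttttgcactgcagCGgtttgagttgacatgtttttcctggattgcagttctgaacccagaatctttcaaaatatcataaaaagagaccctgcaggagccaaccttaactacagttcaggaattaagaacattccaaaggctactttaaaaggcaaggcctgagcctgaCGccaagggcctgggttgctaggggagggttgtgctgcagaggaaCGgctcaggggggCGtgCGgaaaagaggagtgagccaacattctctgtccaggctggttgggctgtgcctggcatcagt
Crlf2: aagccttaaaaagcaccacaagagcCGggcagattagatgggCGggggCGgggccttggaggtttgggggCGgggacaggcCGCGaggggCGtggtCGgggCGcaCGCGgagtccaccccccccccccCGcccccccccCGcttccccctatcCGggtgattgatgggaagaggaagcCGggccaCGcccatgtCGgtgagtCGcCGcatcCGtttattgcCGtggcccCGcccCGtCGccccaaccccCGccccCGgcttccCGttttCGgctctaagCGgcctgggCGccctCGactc
Tubb3: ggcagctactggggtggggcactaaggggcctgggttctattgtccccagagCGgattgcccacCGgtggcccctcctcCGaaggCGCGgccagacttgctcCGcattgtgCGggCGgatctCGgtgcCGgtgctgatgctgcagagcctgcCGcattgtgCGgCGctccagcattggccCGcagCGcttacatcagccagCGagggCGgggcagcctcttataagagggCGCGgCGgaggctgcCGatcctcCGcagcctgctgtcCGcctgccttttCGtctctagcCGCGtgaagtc
Abhd8 has 18 CG, and the 2 promoters of Fkbp11 have 9 and 13, against a median of 7 over 32851 promoters of the same length. The Crlf2 promoter holds the letters GGGCGG at 6 places, the Tubb3 promoter at 2 and the Abhd8 and both Fkbp11 promoters at 1 each, searched on both strands, where 35.7% of all promoters hold them at least once. Neither TATAAA, held by 13.6% of promoters, nor CAGCTG, an E-box type bound by MyoD and held by 16.3%, occurs in any of the 6 windows. GGGCGG was thus found in 5 of the 6 windows and not in that of Ecrg4.

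In myogenic-like cells each of the 7 genes was higher in the KO library. Among all 13565 genes with at least 20 UMIs there, 595 (4.39%) had a KO/WT ratio of at least 2, and the 7 were chosen from these. Tmem52 gave 2 UMIs in WT (0.149 CPM) and 531 UMIs in KO (59.6 CPM), a ratio of 400.5 [110.3 to 3315] whose upper bound is loose because only 2 UMIs stand under it. Ecrg4 went from 148 UMIs (11.02 CPM) to 1288 UMIs (144.6 CPM), 13.1-fold [11.1 to 15.7]. Crlf2 had 202 UMIs (15.04 CPM) in WT and 810 UMIs (91.0 CPM) in KO, 6.05-fold [5.18 to 7.09]. In each of these 3 genes the intervals of both libraries lie well apart, which follows from the ranking by the bound of this ratio.

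Tubb3 gave 276 UMIs (20.5 CPM) in WT and 1068 UMIs (119.9 CPM) in KO cells, 5.84-fold [5.11 to 6.69]. Fkbp11 gave 320 UMIs (23.8 CPM) and 1009 UMIs (113.3 CPM), 4.76-fold [4.19 to 5.41]. Prkg2 gave 288 UMIs (21.4 CPM) and 744 UMIs (83.6 CPM), 3.90-fold [3.40 to 4.48]. Abhd8 gave 193 UMIs (14.4 CPM) and 493 UMIs (55.4 CPM), 3.85-fold [3.26 to 4.57]. The word ectopic fits these genes unequally. Tmem52 was close to absent from WT myogenic-like cells, whereas the other 6 were present there at 11.02 to 23.8 CPM. Free RNA was estimated to supply at most 0.0687 to 0.713 CPM of these 6. That limit is a point estimate from markers of other classes, without counting error. The 7 genes are therefore called raised genes here.

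**Figure D1:**
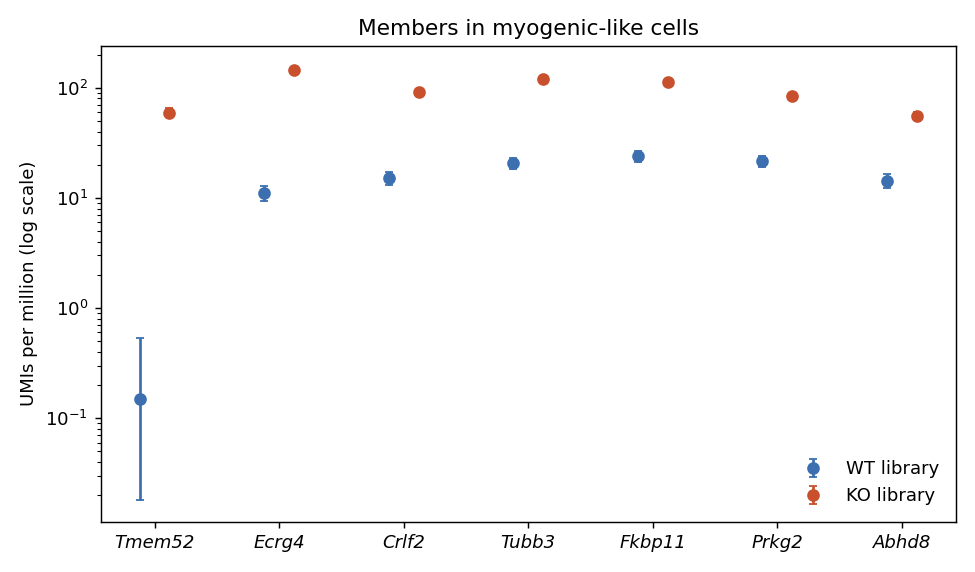
Levels of the 7 genes in myogenic-like cells, as CPM on a log axis, for the WT (blue, 682 cells) and KO library (red-orange, 372 cells); points are summed levels and bars exact Poisson intervals. Every KO point is above its WT point, and the gap is widest for Tmem52 (0.149 against 59.6).

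The transcripts were spread over many KO cells. With every UMI counted, a Crlf2 UMI was seen in 22.7% of WT and 73.4% of KO myogenic-like cells, and an Ecrg4 UMI in 11.9% and 58.9%. For Fkbp11 the shares were 27.6% and 57.3%, for Abhd8 19.5% and 50.3%, for Prkg2 17.4% and 50%, for Tubb3 15.4% and 49.5%, and for Tmem52 0.293% and 24.2%. The 5 cells with the most UMIs held between 7.16% (Crlf2) and 23.2% (Tmem52) of each gene's KO UMIs. Ecrg4 had the richest single cell, with 57 UMIs, and Crlf2 and Abhd8 never passed 14 UMIs in a cell.

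Since KO cells were deeper, the shares were also taken with every cell thinned to 5000 UMIs, and no cell fell short. Ecrg4 and Crlf2 were then each seen in 128 KO cells (34.4% [29.6 to 39.5]), against 3.37% and 7.33% of WT cells. Tmem52 was seen in 52 KO cells (14.0%) and 1 WT cell (0.147%). Phagocyte-like cells, where most of these genes are low, were taken for comparison. The WT levels of Ecrg4 and Fkbp11 there, 1.81 and 1.93 CPM, lie above the estimated limit of free RNA, 1.25 and 1.47 CPM. These shares are thus not shown to be free RNA. At the same 5000 UMIs the share was 1.41% for Ecrg4, 0.382% for Tubb3, 0.117% for Prkg2 and 0.176% for Tmem52 in the KO library, all below the shares in myogenic-like cells. Median depths before thinning were 12235 UMIs in KO phagocyte-like and 21300 UMIs in KO myogenic-like cells.

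Other cell types' markers moved too. The summed level of 16 phagocyte markers in myogenic-like cells was 507.4 CPM in WT and 913.7 CPM in KO, with none at 0, which is 1.29% and 2.32% of the level in phagocyte-like cells themselves. The 6 erythroid markers summed to 44.6 CPM in WT, where 1 was at 0, and to 815.5 CPM in KO, and the 9 tenocyte markers to 94.3 and 199.3 CPM. The 11 mural markers summed to 1031 and 1608 CPM, at 4.81% and 7.25% of their own class. The 12 fibroblast markers summed to 661.1 and 650.6 CPM. The part of these markers in the levels of the 7 genes was not tested.

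The WT library shows where each gene is normally transcribed in injured muscle. Ecrg4 was highest in tenocyte-like cells at 834.8 CPM [786.8 to 885.0], then in fibro-adipogenic cells at 384.3 CPM. Next came a cluster of 296 WT cells led by Tnc, Lrrc15 and Cthrc1 left unnamed because a tenocyte marker but no fibroblast marker was among its 10 leading genes, at 260.7 CPM. These levels do not overlap, and myogenic-like cells followed at 11.02 CPM. KO myogenic-like cells reached 0.173 [0.160 to 0.188] of the WT tenocyte level.

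Fkbp11 had a similar connective-tissue pattern in another order. It was 528.4 CPM in the Tnc-led cluster, of which it is a leading gene, 272.1 CPM in fibro-adipogenic cells and 132.6 CPM in tenocyte-like cells. Endothelial-like cells at 24.9 CPM and myogenic-like cells at 23.8 CPM came next with overlapping intervals, and phagocyte-like cells were last at 1.93 CPM. KO myogenic-like cells were at 0.214 [0.200 to 0.230] of the top level.

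Crlf2 was a gene of the immune and vascular cells. Phagocyte-like cells at 145.5 CPM and dendritic-like cells at 138.4 CPM overlapped, and so did a cluster of 22 WT cells led by the fibre genes Car3, Pvalb and Ckm at 132.3 CPM. Endothelial-like cells followed at 87.0 CPM. T or NK cells (52.1 CPM) lay below these and overlapped mural cells (50.9 CPM), which overlapped tenocyte-like cells (54 UMIs). Myogenic-like cells, at 15.04 CPM, were at place 10 of 11 classes and overlapped only Schwann-like cells, which held 2 UMIs.

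Tubb3 peaked in Schwann-like cells, at 165.3 CPM [123.8 to 216.2] from 53 UMIs in 32 cells, and the mononuclear preparation gave no neuron class to compare. Fibro-adipogenic cells (39.4 CPM) and the Tnc-led cluster (36.8 CPM) overlapped, as did myogenic-like (20.5 CPM) and mural cells (20.1 CPM). In the remaining classes Tubb3 stayed at or under 1.75 CPM. Within the fibro-adipogenic class it was 107.4 CPM in the cycling cluster and 23.4 CPM in the other.

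Prkg2 does not meet the word ectopic in these data. Its WT level was 26.1 CPM [18.6 to 35.7] in mural cells and 21.4 CPM [19.0 to 24.1] in myogenic-like cells, which overlap at the head of the order. The smooth muscle cluster led by Pln and Myh11 held 60.8 CPM from 23 UMIs in 34 cells. KO myogenic-like cells stood 3.20-fold [2.32 to 4.54] above the WT mural level. Abhd8 was broad, from 27.4 CPM in the Tnc-led cluster to 4.25 CPM in dendritic-like cells and 0 UMIs in the 22 cells of the fibre-gene cluster. Each class overlapped the next in this order, with myogenic-like cells at place 7. Its KO myogenic level was 2.02-fold [1.71 to 2.39] the highest WT class.

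Tmem52 was missing from nearly every WT class. Fibro-adipogenic, myogenic-like and phagocyte-like cells held 3, 2 and 2 UMIs, and 7 classes held none. The exception was the cluster led by Car3, Pvalb, Ckm and other genes of mature fibres, in which 11 of 16 phagocyte markers were also higher than in the remaining cells. There Tmem52 had 10 UMIs in 5 of 22 WT cells (34.8 CPM [16.7 to 64.0]) and 11 UMIs in 4 of 31 KO cells (22.8 CPM [11.4 to 40.8]). The Tmem52 level of KO myogenic-like cells, 59.6 CPM, was 1.71-fold [0.924 to 3.59] that of the WT fibre-gene cluster, an interval that holds 1.

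**Figure D2:**
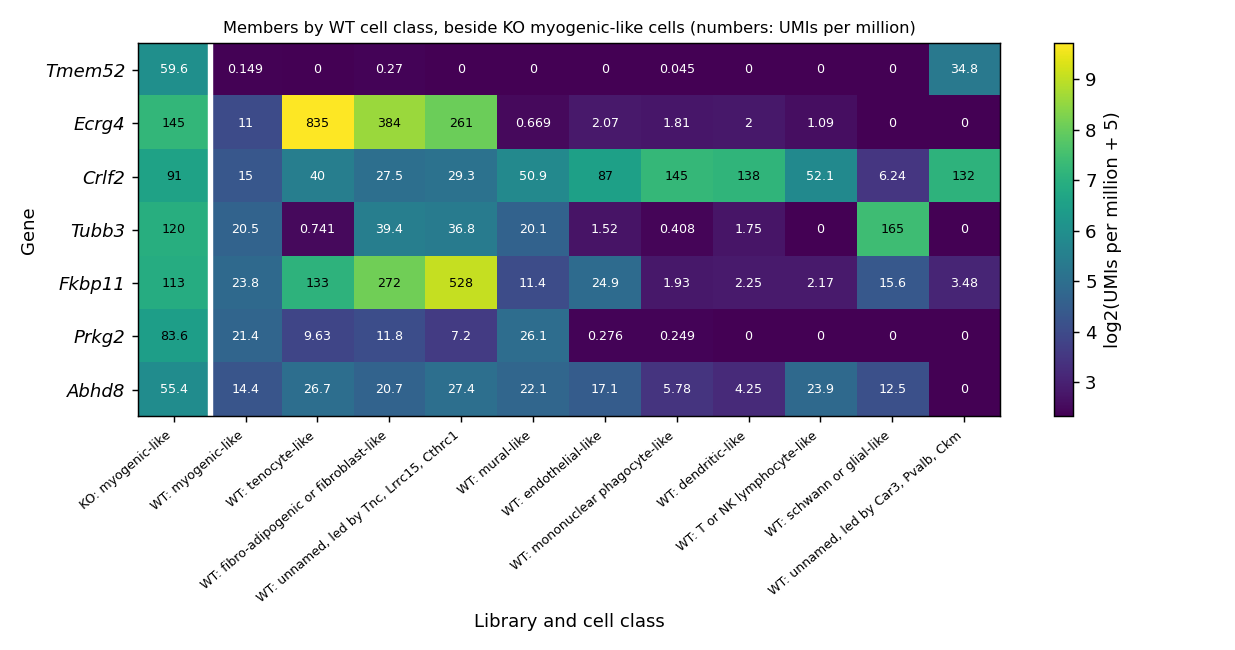
Levels of the 7 genes in each WT cell class, with KO myogenic-like cells in the first column; colour is log2(CPM + 5) and the printed numbers are CPM. Ecrg4 and Fkbp11 are highest in connective-tissue classes, Crlf2 in phagocyte-like and dendritic-like cells, Tubb3 in Schwann-like cells and Tmem52 in the small fibre-gene cluster (34.8).

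Outside the myogenic class the measured ratios were lower than within it, but not all were near 1. The genes were chosen for a high ratio in the myogenic class, so lower ratios elsewhere follow from that choice. Over all other cells together, whose class makeup differs between the libraries, Tmem52 was 2.81-fold [1.54 to 5.43] and Prkg2 2.49-fold [2.15 to 2.90]. Fkbp11 was 1.58-fold [1.53 to 1.62] there, and the remaining genes lay between 0.958 (Crlf2) and 1.22 (Abhd8). In phagocyte-like cells Ecrg4 was 1.69-fold [1.27 to 2.25] and Fkbp11 1.52-fold [1.15 to 2.02]. Of 37 pairs of a gene and a class with at least 50 cells in each library and 20 UMIs, 6 had a KO/WT ratio of at least 2. The share of all genes at that ratio was lower than 6 of 37 in each class. It was 2.06% in phagocyte-like, 2.93% in endothelial-like, 3.15% in dendritic-like and 3.56% in Tnc-led cells. In mural, fibro-adipogenic and tenocyte-like cells it was 4.31%, 4.79% and 6.74%. Of the 6 pairs, 4 rest on levels of at most 4.30 CPM in both libraries: Ecrg4 and Tubb3 in endothelial-like cells (2.08 and 2.12), and Tubb3 and Tmem52 in phagocyte-like cells (2.21 and 8.74). The other 2 were Prkg2 in fibro-adipogenic cells and in the Tnc-led cluster.

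Crlf2 was the same within counting error in its main WT class, at 145.5 CPM in WT and 144.5 CPM in KO phagocyte-like cells (0.994 [0.960 to 1.03]). In dendritic-like, endothelial-like, mural, tenocyte-like and Tnc-led cells its interval also held 1, and in fibro-adipogenic cells it was 1.23-fold [1.06 to 1.44]. Abhd8 intervals held 1 in all 7 other classes. Fkbp11 was 1.87-fold [1.58 to 2.22] higher in KO tenocyte-like cells and 1.34-fold [1.28 to 1.41] in KO fibro-adipogenic cells, and Ecrg4 was 1.28-fold [1.19 to 1.37] higher in KO tenocyte-like cells. Tmem52 had 15 UMIs in WT and 46 UMIs in KO cells outside the myogenic class, 0.192 and 0.541 CPM.

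Prkg2 was 2.25-fold [1.82 to 2.79] and Ecrg4 0.799-fold [0.763 to 0.837] in fibro-adipogenic cells, but different clusters make up that class in the libraries. The cluster led by Clec3b and Penk holds 417 of 480 WT cells and 172 of 356 KO cells, and the cycling cluster holds 63 and 184. Within the first, Prkg2 was 1.25 [0.806 to 1.92] and Ecrg4 1.13 [1.07 to 1.19]. Within the cycling cluster, Prkg2 was 1.16 [0.887 to 1.54], Ecrg4 0.970 [0.868 to 1.08] and Tubb3 0.459 [0.386 to 0.547], from 107.4 to 49.3 CPM. Fkbp11 was at 1.197 [1.12 to 1.28] and 1.09 [1.01 to 1.18] in the 2 clusters, and Crlf2 at 1.18 [0.944 to 1.46] and 1.12 [0.854 to 1.499]. Neither Prkg2 nor Ecrg4 kept its class-wide ratio within the clusters. In the Tnc-led cluster, which was not divided further, Prkg2 went from 7.20 to 22.8 CPM, 3.17-fold [2.36 to 4.34]. The part of cell makeup within that cluster in this ratio was not tested.

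**Figure D3:**
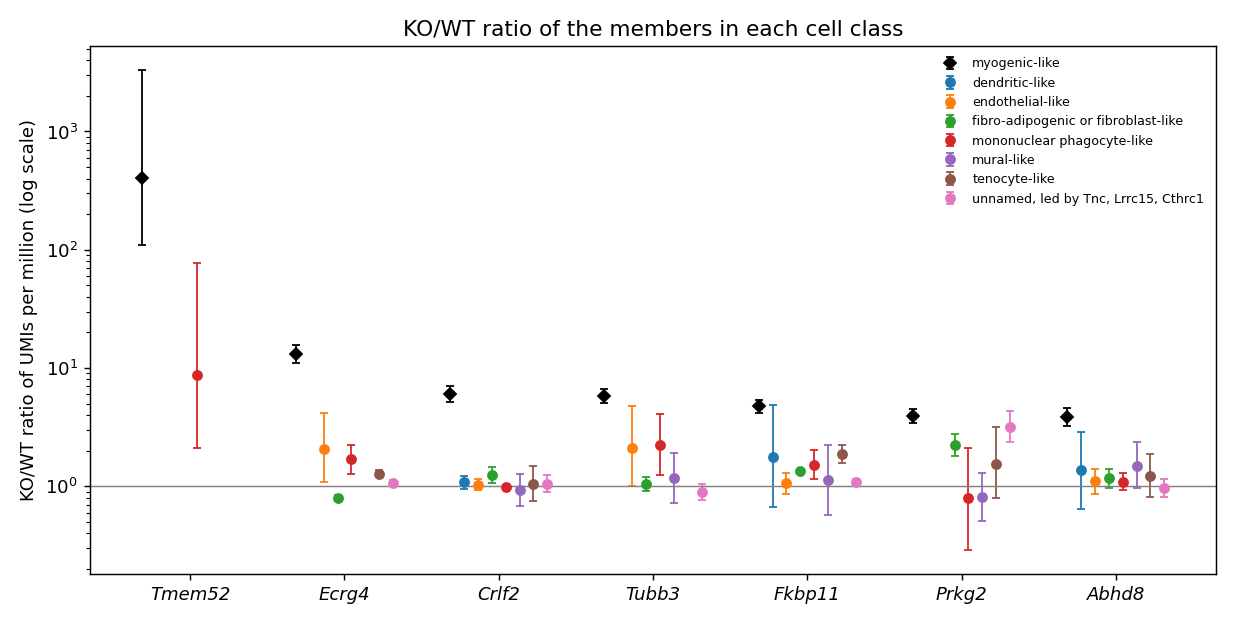
KO/WT ratio of each gene in the myogenic class (black diamonds) and 7 other cell classes (coloured points), on a log axis with conditional binomial intervals; points with under 20 UMIs or none in WT are left out, and the grey line is a ratio of 1. The diamond, the ratio by which the genes were chosen, is the highest point for each of the 7 genes, and most other points lie near 1.

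Myogenic-like cells were divided into 3 states named from gene lists, with the 7 genes left out of the clustering. A stem state led by Chodl held 514 WT and 171 KO cells. The cycling state, whose leading genes include Hist1h2ap, Esco2 and Top2a, had 123 and 136 cells. A differentiating state led by Actc1, Mybph and Tnnc1, with Myog and Mymk among its leading genes, held 45 and 65 cells. The stem state thus made up 75.4% of WT and 46.0% of KO myogenic-like cells.

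The states are parts of the myogenic class in which the 7 genes were chosen, so their counts by state are a description. All 7 genes were at least 2-fold higher in KO cells of the stem and of the cycling state, and 6 of 7 in the differentiating state. The share of all genes at that ratio was 6.31% in the stem, 3.1% in the cycling and 5.56% in the differentiating state. The exception was Tubb3 among differentiating cells, at 44.0 CPM in WT and 72.7 CPM in KO, 1.65-fold [1.19 to 2.33]. In WT cells Tubb3 was at 15.3 CPM in stem, 26.6 CPM in cycling and 44.0 CPM in differentiating cells, the last 2.88-fold [2.04 to 4.003] the first. In KO cells it was 102.3, 157.8 and 72.7 CPM, and the differentiating level was 0.710-fold [0.578 to 0.870] that of the stem state. Its order across states thus differed between the libraries, a difference that was not tested.

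Tmem52 differed most between states. In KO cells it was 39.6 CPM in the stem state, 8.87 CPM in the cycling state and 196.8 CPM in the differentiating state. The differentiating level was 4.98-fold [4.06 to 6.14] and the cycling level 0.224-fold [0.149 to 0.330] that of the stem state. At 5000 UMIs it was seen in 41.5% of differentiating, 11.7% of stem and 3.68% of cycling KO cells. WT cells gave 2, 0 and 0 UMIs in the stem, cycling and differentiating state. With 0 WT UMIs the KO/WT ratio has only a lower bound, which was 7.62 in cycling and 60.3 in differentiating cells.

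Prkg2 and Abhd8 followed other orders. Prkg2 was highest in cycling cells of both libraries, at 35.2 CPM in WT and 117.6 CPM in KO, and the cycling level was 1.996-fold [1.56 to 2.55] and 1.70-fold [1.45 to 2.01] that of the stem state. Its KO/WT ratio was near the same in each state, at 3.91, 3.34 and 3.67. Abhd8 was highest in differentiating KO cells at 78.0 CPM, 1.68-fold [1.33 to 2.12] the stem level of 46.5 CPM. In WT cells it was highest in the cycling state, at 22.1 CPM.

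Ecrg4, Crlf2 and Fkbp11 differed less across KO states. Ecrg4 stood at 151.6, 152.6 and 116.7 CPM in KO stem, cycling and differentiating cells. Its WT level was lowest in cycling cells at 5.38 CPM, so the ratio there was 28.4 [17.8 to 48.2], against 12.0 in stem and 7.80 in differentiating cells. Crlf2 was at 86.3, 94.9 and 90.7 CPM, with both other states within counting error of the stem level. Fkbp11 was at 113.3, 123.6 and 92.3 CPM. For Ecrg4 and Fkbp11 the differentiating level lay below the stem level, at 0.770 [0.653 to 0.905] and 0.815 [0.676 to 0.979].

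**Figure D4:**
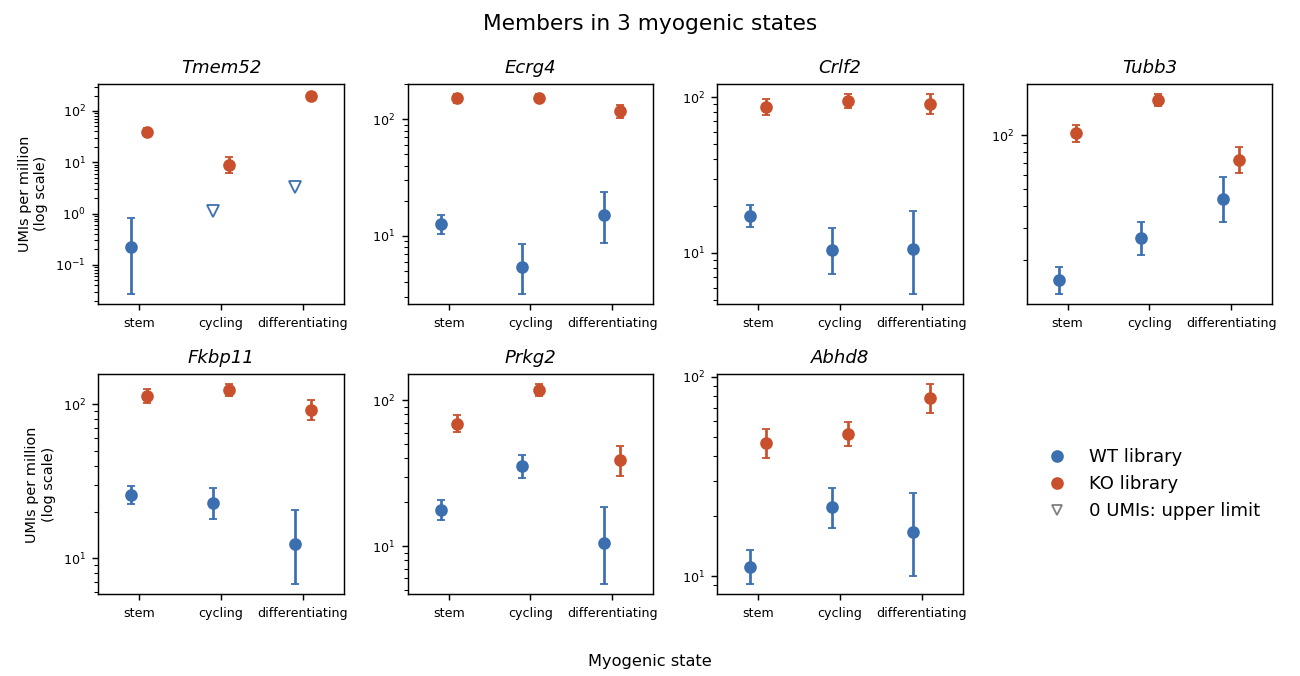
Levels of the 7 genes in the stem, cycling and differentiating states, as CPM on log axes whose ranges differ between panels, for WT (blue) and KO (red-orange) with exact Poisson intervals; open triangles are the upper bounds of the exact Poisson interval of WT sums with 0 UMIs. KO points lie above WT points in every panel, Tmem52 is highest in differentiating cells (196.8), Prkg2 and Tubb3 in cycling cells (117.6 and 157.8).

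Single KO cells often held several of the genes, which were chosen as raised in these cells. A higher number of genes per KO cell follows from that choice. It does not show that the genes go together in single cells. At 5000 UMIs per cell, 55 KO myogenic-like cells held none of the 7, 98 held 1, 105 held 2, 84 held 3, 19 held 4 and 11 held 5, a mean of 1.86 genes. Among WT cells 457 held none, 194 held 1, 29 held 2 and 2 held 3, a mean of 0.378. At least 2 genes were seen in 58.9% [53.7 to 63.9] of KO and 4.55% [3.11 to 6.39] of WT cells. By state, the KO share was 48.0% in stem, 71.3% in cycling and 61.5% in differentiating cells, and the WT share 4.28%, 3.25% and 11.1%. No cell held 6 or 7, which allows a share of up to 0.987% of KO cells by the exact interval.

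**Figure D5:**
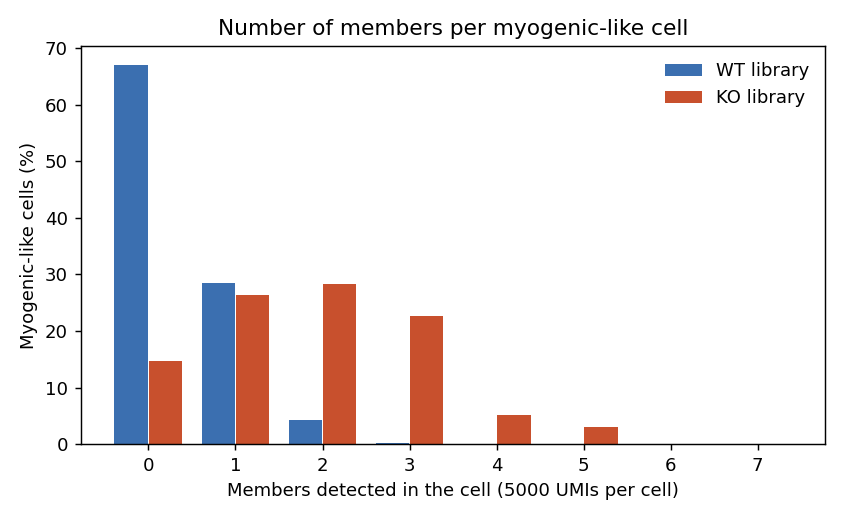
Share of myogenic-like cells in percent by the number of the 7 genes with a UMI, each cell thinned to 5000 UMIs, for 682 WT (blue) and 372 KO cells (red-orange); bars carry no error. WT cells gather at 0 and 1 gene, KO cells spread from 0 to 5 with the most at 2.

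In the thinned counts, UMIs of the genes were seen in overlapping but not the same cells. A cell without a UMI of a gene may still express it. The shares below therefore cannot tell whether the genes are expressed in the same or in different cells. Of 21 pairs, 14 had a higher share of 1 gene among KO cells that held the other, but only for Ecrg4 and Crlf2 did the intervals lie apart. Ecrg4 was seen in 44.5% [35.8 to 53.6] of the cells with Crlf2 and in 29.1% [23.5 to 35.2] of those without. Within the stem, cycling and differentiating states alone, 0 of 21 pairs had intervals apart. Tmem52 was seen in 7.07% [2.89 to 14.0] of cells with Prkg2 and in 16.5% [12.3 to 21.4] of those without, which overlap. Gsta4, a glutathione transferase at place 3 of the same ranking, was seen together with 2 of the genes more often in all KO myogenic-like cells. Tubb3 was seen in 32.3% [25.6 to 39.5] of cells with Gsta4 and 16.7% [11.6 to 22.8] without, and Prkg2 in 33.9% [27.1 to 41.2] and 19.4% [13.9 to 25.8]. Within each state alone, none of the 7 genes had intervals apart with and without Gsta4.

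KO cells that held at least 2 genes were compared with the 55 that held none, a division of a range and not 2 cell types. Setdb1 was 8.44 CPM (50 UMIs) in the 219 holding cells and 7.66 CPM (7 UMIs) in the others, a ratio of 1.10 [0.497 to 2.88]. Holding cells comprised 82 stem, 97 cycling and 40 differentiating cells, the others 36, 10 and 9. The stem and quiescence list summed to 1510 CPM in holding and 2443 CPM in other cells (0.618 [0.590 to 0.648]), with Pax7 at 73.8 and 166.4 CPM. The cell cycle list was 1.59-fold [1.52 to 1.67] and the commitment and differentiation list 1.38-fold [1.34 to 1.42] in holding cells. This profile depends on the division. In the 30 cells that held at least 4 genes, against the 342 that held fewer, the commitment and differentiation list was lower, at 0.468 [0.451 to 0.485], with Myog at 0.319 [0.277 to 0.365]. Pax7 was then at 1.00 [0.780 to 1.27], and the cell cycle list stayed higher, at 1.42 [1.37 to 1.47].

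Quality-related lists differed in the same split. Genes of the immediate early list, which respond to tissue dissociation, summed to 4298 CPM in holding and 13142 CPM in other cells. The 16 phagocyte markers summed to 618.5 and 1268 CPM. Before thinning, the median depth was 24077 UMIs in holding and 12683 UMIs in the other cells. The part of depth, phagocyte markers and immediate early genes in this difference was not tested.

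The partners of each protein were described from lists of their pathways or families. Over all 13565 genes the median log2 KO/WT ratio, on CPM + 5, was 0.03. Of these genes, 54.2% had a ratio above 1, 4.39% a ratio of at least 2 and 4.89% a ratio of at most 0.5. Of 16 genes of the TSLP receptor pathway, 13 were measured, of which 1 had a ratio of at least 2 and 2 of at most 0.5 (median log2 ratio -0.18). Il7r, the partner chain of Crlf2, gave 5 UMIs in WT and 7 UMIs in KO myogenic-like cells, 0.372 and 0.786 CPM, so its change was not detectable at this depth. Where Crlf2 is normally high, Il7r was at 60.7 CPM in WT phagocyte-like and 68.5 CPM in WT dendritic-like cells. The ligand Tslp was at 3.28 and 2.47 CPM in myogenic-like cells. Il2rg, the common cytokine receptor chain and not part of the Crlf2 and Il7r pair, was 2.25-fold [1.64 to 3.11] higher in KO cells (4.99 and 11.2 CPM). Phagocyte markers were also higher in these KO cells (507.4 and 913.7 CPM), and their part in the Il2rg level was not tested. Cish, a feedback inhibitor of cytokine receptor signalling, was lower, at 0.279 [0.156 to 0.471].

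Around Prkg2, none of 9 measured genes of cGMP signalling had a ratio of at least 2, and 2 had at most 0.5 (median log2 ratio -0.15). Nppc, which encodes the C-type natriuretic peptide, was at 29.2 CPM in WT and 2.25 CPM in KO cells (0.0770 [0.0465 to 0.121]), and Gucy1a1, a soluble guanylate cyclase subunit, gave 21 UMIs in WT and 1 UMI in KO cells (0.0718 [0.00174 to 0.447]). Prkg1, the related kinase, gave 3 and 2 UMIs in myogenic-like cells and 78.3 CPM in WT mural cells.

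Around Tubb3, none of 13 measured tubulins had a ratio of at least 2, and Tubg2 was at 0.266 [0.0913 to 0.641] (median log2 ratio 0.47). Of 22 neuronal cytoskeleton and synapse genes 7 were measured. Stmn2 (1.34 and 3.37 CPM) and Gap43 (0.819 and 1.68 CPM) had ratios of at least 2, the interval of Gap43 holding 1, while Dcx was at 0.247 [0.202 to 0.301] and Dpysl3 at 0.427 [0.389 to 0.469].

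Around Fkbp11, 23 of 24 measured genes of endoplasmic reticulum folding and the unfolded protein response had a ratio above 1, beside 54.2% of all genes, with a median log2 ratio of 0.42. Only Creld2, at 2.19 [1.97 to 2.43], and Sdf2l1, at 2.06 [1.85 to 2.31], reached 2. Such a share above 1 was not particular to this list. It was 94.7% for the cell cycle and 89.5% for the commitment and differentiation list. Other lists went the other way, with 11.1% for cGMP signalling and 0% for immediate early genes. None of 13 other measured FKBP genes and none of 17 other measured ABHD genes reached a ratio of 2 or 0.5. Of 10 choroid plexus genes chosen around Ecrg4, 3 were measured: Folr1 (4 and 25 UMIs), Aqp1 (2.06 [1.54 to 2.76]) and Enpp2 (0.367 [0.156 to 0.774]).

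The state of the whole myogenic class differed between the libraries too. Of 19 commitment and differentiation genes, 4 had a ratio of at least 2, led by Tnnt2 (2.95 [2.82 to 3.09]) and Acta1 (2.57 [2.49 to 2.66]), and Myh8 was at 0.371 (median log2 ratio 0.82). Of 19 measured cell cycle genes only Mcm2 reached 2, at 2.32 [1.87 to 2.90], with a median of 0.65. Of 16 stem and quiescence genes none reached 2, and Chodl, Calcr and Hey1 were at 0.393, 0.393 and 0.455 (median -0.37). None of 15 genes on the immediate early list was above 1, beside 54.2% of all genes (median -0.73). Dnajb1, a heat shock gene on that list, was under 0.5, at 0.471. With KO states weighted to the WT makeup, all 7 genes were still at a ratio of at least 2, an alternative chosen after seeing the data.

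The neighbours on the chromosome were measured too, within 200 kb of each start. Of 50 measured neighbours, 4 had a KO/WT ratio of at least 2 and 2 of at most 0.5, beside 4.39% and 4.89% of all genes. Gabrd, 71002 bases upstream of Tmem52, gave 2 UMIs in WT and 28 UMIs in KO cells (21.1 [5.33 to 182.9]), and Gnb1 on its other side was 1.65-fold [1.56 to 1.76]. Arf3, 35016 bases upstream of Fkbp11, was 2.54-fold [2.09 to 3.10], and Rnd1 on the other side 0.838 [0.518 to 1.33]. Def8, 12103 bases downstream of the Tubb3 start, was 2.05-fold [1.499 to 2.82], and Tcf25 on the other side 1.03 [0.970 to 1.10].

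Abhd8 had the closest neighbour, Mrpl34, whose start is 1304 bases away on the opposite strand, at 97.8 CPM in WT and 124.0 CPM in KO cells (1.27 [1.17 to 1.38]), and Ankle1 on the other side was 0.970 [0.575 to 1.61]. The nearest measured genes to Ecrg4 and Crlf2 were Uxs1 (1.58 [1.40 to 1.79]) and 4930522L14Rik (1.39 [0.860 to 2.25]), and Prkg2 had none within 200 kb. Prkcz, near Tmem52 at 107753 bases, had a ratio of 2.18 with an interval that holds 1. Bst2 and Slc27a1 near Abhd8 were at 0.471 and 0.457.

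Genes most like each member over 16 class and library sums were found by Pearson's r of log2(CPM + 5). The sums share their libraries, and several genes rest on few UMIs, so this is a description. For Tmem52 they were Tdrd9, Sema3e and Slco1a5, each with r of 0.99, at 0.447, 1.49 and 0.149 CPM in WT and 21.7, 42.4 and 12.5 CPM in KO myogenic-like cells. Tmem52 was at 59.6 CPM in the KO myogenic sum and at most 2.63 CPM in the others. Its r thus rests on the KO myogenic sum, which was used to choose it. For Ecrg4 they were Fndc1, Tenm3 and Azin2 (r 0.98, 0.98 and 0.97), and for Fkbp11 Ssr2, Tmed9 and Srm (0.98, 0.97 and 0.97), genes present at 66.0 to 240.0 CPM in WT myogenic-like cells. For Crlf2 they were Tmsb4x, Hcls1 and Inpp5d (0.92, 0.91 and 0.90). For Tubb3 they were Dtl, Ran and Psmb2 (0.94, 0.92 and 0.92), for Prkg2 Tmtc4, Hacd1 and Cdh2 (0.95, 0.94 and 0.93), and for Abhd8 Twsg1, Zcchc17 and Ccdc124 (each 0.94). No gene was named for more than 1 member.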

How the data were processed

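The deposited matrices hold raw UMI counts of 55487 genes for every barcode, per the file headers. Per the submitters' processing notes, the authors used STARsolo 2.7.9a, STAR 2.7.8a, Seurat 4.0.1 and GRCm38. The sources used here do not say which tool made which step or how reads of overlapping genes were counted. The libraries total 121703522 (WT) and 138667420 (KO) UMIs.

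A cell needed the 99th percentile of UMIs of the top 3000 barcodes divided by 10 (5146 UMIs in WT, 6297 in KO), 300 genes and at most 10% mitochondrial UMIs. Scrublet's own threshold marked 0 doublets in both libraries, so the highest-scoring 5.34% of WT and 4.82% of KO barcodes were removed. Both libraries were clustered together (scanpy 1.11.5, leidenalg 0.10.2; 2000 variable genes, 30 components, 15 neighbours, resolution 1) without the 7 genes and 6 others of the same ranking, and named from marker lists; myogenic-like cells were clustered again at resolution 0.1, chosen after seeing the leading genes of the clusters at several values. The Tnc-led cluster stayed unnamed because Tnc, a tenocyte marker, and no fibroblast marker was among its 10 leading genes. The Car3-led cluster stayed unnamed because fibre genes led it, a rule added once its genes were known. Class sums in each library were expressed in CPM with exact Poisson intervals. Ratios have conditional Clopper-Pearson intervals and shares exact binomial ones. Only the ratio intervals were checked on simulated data. These were Poisson sums, which hold counting error alone, so the check does not cover differences between cells or libraries. With 1 library per group there are no tests.

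The genes, lists and markers were chosen with earlier results of these data known. Named genes are the 7 members, list genes at a ratio of 2 or 0.5 (at most 4 a list), Il7r, Tslp, Prkg1 and Setdb1, the 3 most similar genes, and the nearest measured neighbours. Other neighbours, AI506816, Gsta4 and genes of the state and phagocyte lists were named after their values were seen. Of the gene IDs, 55227 were in GENCODE M21. Promoter sequences come from RefSeq; those of Tmem52 and Prkg2 were not used here. Some genes of the lists are not reported here.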

Additional observations from a re-analysis of the deposited data

Results flagged for a closer look

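Ecrg4 was 13.1-fold higher in KO myogenic-like cells but 0.799-fold in KO fibro-adipogenic cells, with intervals on opposite sides of 1; the difference between the classes was not tested. In the 2 clusters of the fibro-adipogenic class Ecrg4 was at 1.13 [1.07 to 1.19] and 0.970 [0.868 to 1.08].

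Barcodes of at least 2000 UMIs that lie under the cell minimum are outside the comparisons above and were looked at after seeing the data. Of these, 33 WT and 608 KO barcodes clustered with the myogenic cells, at medians of 3503 and 3032 UMIs. Tmem52 was at 43.6 CPM there in KO (88 UMIs) and had 0 UMIs in WT, which allows up to 31.2 CPM. Ecrg4 was at 100.6 CPM in KO and 8.46 CPM in WT (1 UMI, up to 47.1 CPM). Fkbp11 was at 133.9 CPM in KO and 8.46 CPM in WT (1 UMI, up to 47.1 CPM). For Crlf2, Tubb3, Prkg2 and Abhd8 the WT intervals reach the KO level. In these barcodes phagocyte markers summed to 1531 CPM in WT and 13389 CPM in KO, and fibroblast markers to 879.9 and 4017 CPM; their part in the levels was not tested.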

How the results depend on the processing

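The KO/WT ratio in myogenic-like cells stayed at least 2 for all 7 genes under each of 8 alternatives, except that Tmem52 had no WT UMI left, and so no ratio, in cells named by their own markers and without the 5 cells with most UMIs of the gene. Of 54 single-gene ratios 48 stayed within the interval of the reported value and 6 moved beyond it. Their ranges were 263.5 to 436.9 for Tmem52, 12.1 to 17.6 for Ecrg4, 4.34 to 6.28 for Crlf2 (lowest with doublets kept), 4.44 to 6.55 for Tubb3, 4.45 to 5.02 for Fkbp11, 3.48 to 6.13 for Prkg2 and 2.68 to 3.97 for Abhd8. The share of all genes at a ratio of at least 2 was 8.16% with a minimum of 5 UMIs and 14.3% with any UMI. The share of KO cells with at least 2 genes was 9.95% when thinned to 1000 UMIs, 28.0% when thinned to 2000, 21.9% with a cell minimum of 2000 and thinning to 2000, and 43.7% in cells named by their own markers, so it is a value at 5000 UMIs and not a share of expressing cells. Over 5 other draws of the thinning, added after seeing the data, it was 56.5% to 58.6%. With a cell minimum of 2000 UMIs, 10 pairs of a gene and another class reached a ratio of 2 in place of 6. The stem list ratio of holding cells was 0.653 with at least 1 gene as the division, 0.818 with at least 3 against fewer and 0.929 with at least 4 against fewer. The commitment list ratio, 1.38 as reported, was 1.35 with at least 1 gene, 1.11 with at least 3 and reversed to 0.468 with at least 4; these divisions of the commitment list, and at least 4 for the stem list, were added after seeing the data. The cause of these differences was not tested. Resolution 0.05 for the states gave 1 cluster and no value. No paired analysis was possible because each group has 1 library. Depth limits Tmem52 in WT (2 UMIs), Il7r and Prkg1.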
